A study of Mus musculus with 8 samples.

Results

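The mitochondrial ribosomal proteins were followed in purified striatal neurons of a mouse model of Huntington's disease. They were taken as every non-control probe whose gene name in the scanner files begins with Mrpl or Mrps followed by a digit. This gave 106 probes of 55681, for 76 genes, of which 29 carry a small-subunit name (Mrps) and 47 a large-subunit name (Mrpl). All 106 probes were measured, that is, well above the scanner software's background on at least 4 of the 8 arrays. The signal was well above background on all 8 arrays for 75 of the 76 genes, and on 7 arrays for Mrpl28. Proteins of the same particle that carry other names in the files (Dap3, Ptcd3 and others) fall outside this rule.

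Medium spiny neurons (MSNs) are the inhibitory output cells of the striatum. Their RNA was taken from males at an age of 4 weeks. One group of 4 arrays holds R6/2;Scn4b-Venus mice and the other WT;Scn4b-Venus mice, so both carry the Venus reporter and the R6/2 transgene is the only stated difference. R6/2 mice carry exon 1 of human HTT with an expanded CAG repeat under the human promoter, in addition to their own Htt genes. Cells that were positive for Venus, a fluorescent protein, and negative for the dead-cell dye propidium iodide were sorted, and about 4 to 20 ng of total RNA was obtained. The labels do not say whether an array holds 1 mouse or several, so p-values measure the spread between these samples. The comparison asks whether transcripts of the mitochondrial translation machinery differ in R6/2 MSNs at this age.

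Mitochondria translate the few proteins encoded in their own DNA, all of them parts of the respiratory chain and the ATP synthase, on a ribosome of their own. Its RNAs come from mitochondrial DNA, but all of its proteins are encoded in the nucleus, made in the cytosol and imported. The small subunit binds the mRNA and reads the codons, the large subunit joins the amino acids and passes the chain out at the inner membrane, and both hold proteins with bacterial counterparts beside others that bacteria lack. MSNs are among the neurons most affected in Huntington's disease, in which changes of mitochondrial function have long been studied.

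No mitochondrial ribosomal gene passed the test for a difference between R6/2 and WT MSNs. None of the 76 genes had an adjusted p under 0.05 (limma, Benjamini-Hochberg over all 26915 genes tested), against 0.00372% of all genes, which is 1 gene, and the lowest adjusted p among them was 0.564. At an unadjusted p under 0.05 there were 7, or 9.21%, close to the 7.15% of all genes. Of these, 5 were higher in R6/2 (3.7% of all genes were) and 2 were lower (3.45% of all genes were). The methods' t-test on the same values gave 4 higher (3.25% of all genes were) and 2 lower (3.65% were), and none after adjustment. In whole sorted populations, fewer cells of a type and less RNA per cell cannot be told apart.

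The differences were small and varied in sign. The median log2 difference (R6/2 minus WT) was 0.06 over the 76 genes and 0.03 over all genes tested. It was positive for 51 members and negative for 25, or 67.1% positive against 54% of all genes. Scaling each array by its median in place of its 75th percentile turned that split to 34 positive and 42 negative, and the median to -0.03, while the median of all genes became -0.06. Sizes were small in the family. The median size of a difference was 0.187 against 0.249 over all genes, 50 members lay within 0.25 of 0, and 65 within 0.5. A probe well above background on all 8 arrays existed for 75 of the 76 members and for 18687 of 26915 genes. Sizes were not matched for this.

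The precision sets what could have been seen. The median half-width of the 95% interval was 0.57 on the log2 scale, a 1.48-fold change, against 0.69 over all genes. For 52 of the 76 genes (68.4%, against 51.5% of all genes) the whole interval lay within a 2-fold change in either direction. It lay within a 1.5-fold change for 13 (17.1%, against 12.6%). The narrowest belonged to Mrps33, a small-subunit protein that bacteria lack, with a difference of 0.08 and an interval from -0.28 to 0.44. The widest belonged to Mrps2, counterpart of a bacterial protein of the small subunit, with a difference of 0.01 and an interval from -1.41 to 1.43. The other probe of Mrps2 gave 0.18, with an interval from -0.41 to 0.78.

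**Figure D1:**
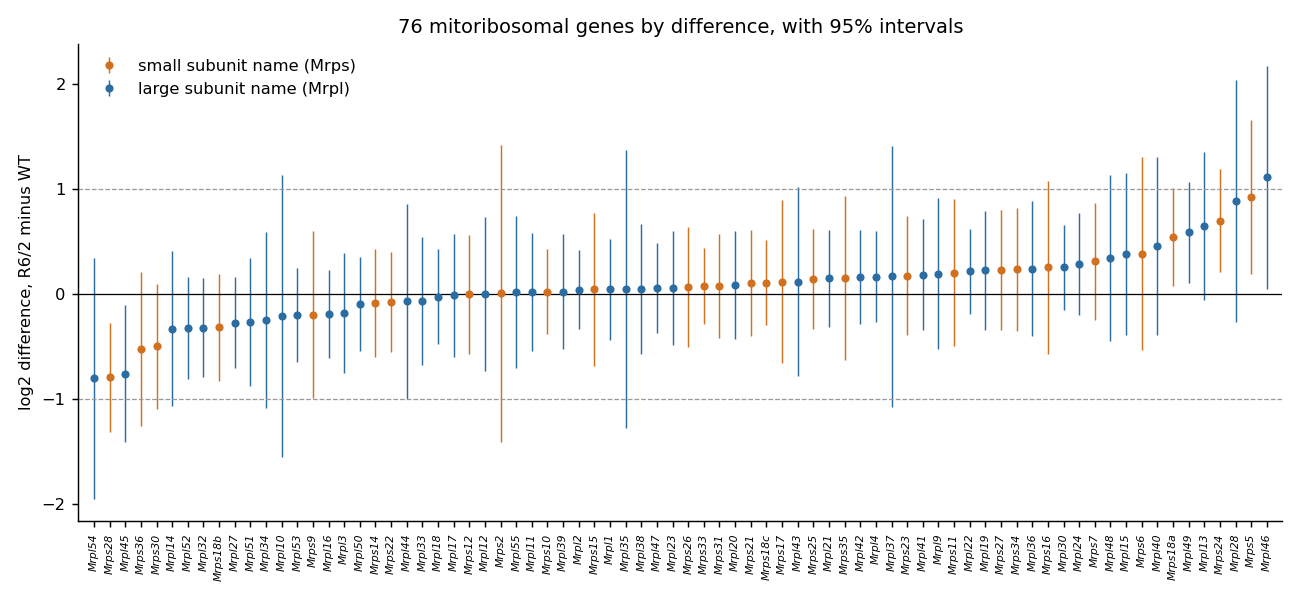
Log2 difference (R6/2 minus WT) of each of the 76 genes, ordered from lowest to highest, with its 95% interval from limma; dashed lines mark a 2-fold change and colours the subunit in the gene's name. Differences run from -0.80 (Mrpl54) to 1.11 (Mrpl46), and most intervals cross 0.

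Levels below are log2 values relative to the 75th percentile of each array, so 0 is the signal of a bright probe and a level compares arrays, not genes. Averaged over the 76 genes, the level was 1.279, 1.298, 1.195 and 1.242 on the WT arrays and 1.287, 1.241, 1.384 and 1.383 on the R6/2 arrays. The means were 1.25 ± 0.05 and 1.32 ± 0.07 (SD, n = 4 each), and R6/2 replicates 1 and 2 lay within the WT range. WT replicate 1 had 50.1% of its probes well above background against 67.7% to 78.8% on the other arrays. Its mean over the members was nevertheless within the range of the other WT arrays, and without it the median difference was 0.08.

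No small-subunit gene passed the test. Of the 29 genes with an Mrps name 21 had positive and 8 negative differences, with a median of 0.11 (0.01 under array median scaling). Without Mrps18a and Mrps30, whose proteins are found in the large subunit, 27 remain, 20 positive and 7 negative. The 2 genes with the smallest p of the whole family are both small-subunit proteins, and they point in opposite directions. Each was read by a single probe, of which the first 30 of 60 bases are given here to identify what was measured, 5′ to 3′, in the order Mrps28 (mm9 chr3:8802222-8802281, minus strand) and Mrps24 (mm9 chr11:5604421-5604480, minus strand).
Mrps28: gactcaaaatcaagagaggagcaacccagc
Mrps24: cctccaaggtcgtgtacaagtacatataaa

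Mrps28, a small-subunit protein grouped with those that have a bacterial counterpart, had levels of 0.97, 1.35, 0.86 and 0.81 in WT and 0.09, 0.69, 0.12 and -0.08 in R6/2. All 4 R6/2 arrays lay below all 4 WT arrays. The difference was -0.79 (SE 0.23, limma adjusted p = 0.564), and its 95% interval ran from -1.32 to -0.27. It stayed at an unadjusted p under 0.05 in all 19 alternative settings.

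Mrps24, whose bacterial counterpart lies where the mRNA enters the small subunit, had levels of -1.47, -1.15, -1.58 and -0.83 in WT and -0.36, -0.50, -0.72 and -0.65 in R6/2. Here all 4 R6/2 arrays lay above all 4 WT arrays. The difference was 0.70 (SE 0.22, limma adjusted p = 0.607), again at an unadjusted p under 0.05 in all 19 alternative settings. Both genes were picked for the smallest p, and the settings draw on the same arrays. The other genes under that threshold each lost it when some single array was left out. Their highest unadjusted limma p was then 0.0505 (Mrps5), 0.0543 (Mrpl49), 0.0692 (Mrpl45), 0.0733 (Mrps18a) and 0.103 (Mrpl46).

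Mrps5 is another protein of the mRNA channel, with a bacterial counterpart known for its part in decoding accuracy. Its levels were -0.45, -0.79, -0.05 and -0.53 in WT and 1.33, 0.24, -0.08 and 0.41 in R6/2. R6/2 replicates 1, 2 and 4 lay above every WT array, and R6/2 replicate 3 lay within the WT range. The difference was 0.93 (SE 0.32, limma adjusted p = 0.639).

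The other small-subunit genes differed less. Among the 6 genes grouped as the decoding region and mRNA channel (Mrps2, Mrps5, Mrps7, Mrps12, Mrps24 and Mrps35) 5 differences were positive, with a median of 0.23. Mrps12, whose bacterial counterpart sits at the decoding centre, was 2.91 ± 0.39 in WT and 2.91 ± 0.27 in R6/2 (SD, n = 4 each), a difference of -0.00. Mrps7 had a difference of 0.31 (limma adjusted p = 0.821). Of the 10 small-subunit genes without a bacterial counterpart 8 were positive, with a median of 0.11. None reached an unadjusted p under 0.05, against 7.15% of all genes. In that class Mrps36 had the smallest p, with a difference of -0.52 (limma adjusted p = 0.777), while its other probe gave 0.19 and the mean of both -0.16. The protein of Mrps36 is now known as a part of the oxoglutarate dehydrogenase complex rather than of the ribosome. Mrps10, which has a bacterial counterpart, was at 5.99 ± 0.17 in WT and 6.01 ± 0.15 in R6/2 (SD, n = 4 each).

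In the large subunit 30 of the 47 Mrpl genes had positive and 17 negative differences, with a median of 0.05 (-0.05 under array median scaling). With Mrps18a and Mrps30 counted here, 31 large-subunit genes have a bacterial counterpart (21 positive, 10 negative, median 0.05) and 18 have none (10 positive, 8 negative, median 0.04). Both subunits and both classes thus had medians within 0.25 of 0, and no difference between subunits was tested.

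Mrps18a had levels of 0.27, -0.14, 0.05 and 0.13 in WT and 0.91, 0.35, 0.83 and 0.42 in R6/2. The groups did not overlap, and the difference was 0.55 (SE 0.20, limma adjusted p = 0.658). Mrps30 had a difference of -0.50 (limma adjusted p = 0.745), or -0.33 without WT replicate 2. R6/2 replicates 1, 2 and 3 read lower than every WT array.

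Mrpl45, a protein at the exit of the nascent chain that anchors the ribosome to the inner membrane, had levels of 1.46, 0.81, 0.52 and 0.18 in WT and -0.15, 0.17, -0.23 and 0.15 in R6/2. All R6/2 arrays were lower, although the lowest WT array and the highest R6/2 array nearly touch. The difference was -0.76 (SE 0.29, limma adjusted p = 0.666). The other genes of the exit and membrane side (Mrpl22, Mrpl23, Mrpl24, Mrpl44 and Mrpl47) lay between -0.07 and 0.29 on their brightest probes. Their other probes gave -0.32 (Mrpl22), 0.02 (Mrpl23) and -0.49, 0.32 and 0.45 (Mrpl47).

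Mrpl46, a protein of the central protuberance of the large subunit, had levels of -0.39, -2.39, -0.37 and -0.56 in WT and 0.70, -0.20, 0.20 and 0.04 in R6/2. The groups did not overlap, but WT replicate 2 lay far below the other WT arrays. Its difference of 1.11 (SE 0.47, limma adjusted p = 0.681), the largest of the family, was 0.63 without that array. The 6 other central-protuberance genes (Mrpl18, Mrpl27, Mrpl38, Mrpl40, Mrpl48 and Mrpl52) ranged from -0.32 (Mrpl52) to 0.46 (Mrpl40).

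Mrpl49, a large-subunit protein that bacteria lack, had levels of 2.89, 2.81, 2.88 and 3.08 in WT and 4.01, 3.41, 3.33 and 3.27 in R6/2. Every R6/2 array was above every WT array on this probe, with a difference of 0.59 (SE 0.21, limma adjusted p = 0.652). The other probe of Mrpl49, at -1.35 ± 0.80 in WT and -1.46 ± 0.42 in R6/2 (SD, n = 4 each), gave -0.11, and the mean of both probes 0.24.

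**Figure D2:**
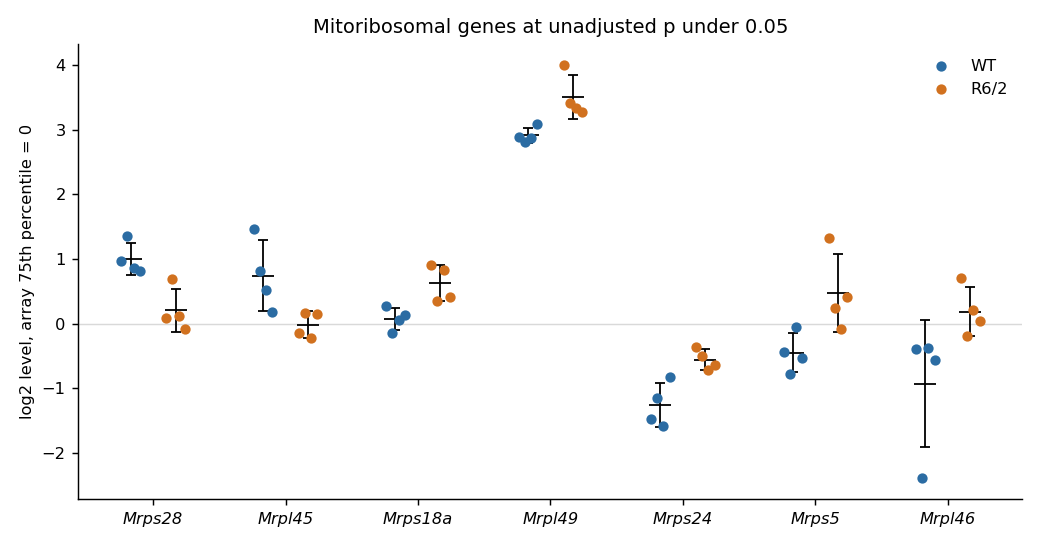
Log2 level on each array of the 7 genes at an unadjusted p under 0.05 (4 WT and 4 R6/2 points each, 0 being the array's 75th percentile); long bars are group means and error bars 1 SD. The groups overlap only for Mrps5, and the spread of Mrpl46 in WT comes from 1 array at -2.39.

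The remaining large-subunit genes with the smallest p in each direction were further from the threshold. Upward these were Mrpl13 (0.65, SE 0.31), Mrpl28 (0.89, SE 0.51) and Mrpl30 (0.26, SE 0.18), with limma adjusted p of 0.726 to 0.799. Mrpl28, not well above background on 1 array, was at -3.44 ± 0.97 in WT and -2.56 ± 0.62 in R6/2 (SD, n = 4 each), and its difference was 0.47 without WT replicate 1 and 0.25 under normexp background correction. Mrpl30 was at 0.16 under array median scaling. Downward they were Mrpl54 (-0.80, SE 0.50), Mrpl32 (-0.32, SE 0.21; -0.20 without R6/2 replicate 1), Mrpl52 (-0.32, SE 0.21) and Mrpl27 (-0.27, SE 0.19), with limma adjusted p of 0.780 to 0.799. Mrpl54 was spread from 1.34 to 3.89 over the WT arrays and from 1.35 to 2.42 over the R6/2 arrays, and the groups overlapped because WT replicate 4 lay below all R6/2 arrays, while the other 3 WT arrays lay above them. Its difference was -0.36 without WT replicate 1 and -1.21 without WT replicate 4. Mrpl32 is matured in mitochondria by the m-AAA protease before it joins the ribosome, and Mrpl27 is the counterpart of a bacterial protein near the catalytic centre.

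The L7/L12 stalk recruits the factors that drive elongation. Its 4 genes lay at -0.21 (Mrpl10), -0.20 (Mrpl53), 0.00 (Mrpl12) and 0.02 (Mrpl11), with a lowest limma adjusted p of 0.864. The other probe of Mrpl10 gave 0.24. Over the 59 members not named for a small p or for probes over 1 apart, differences ran from -0.33 (Mrpl14) to 0.46 (Mrpl40). Of these 43 were positive and 16 negative, and the lowest adjusted p was 0.807 (Mrpl24).

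Groups did not overlap for 6 of the 76 genes, or 7.89%, against 4.73% of all genes. These were Mrps24, Mrpl49, Mrps18a and Mrpl46 on the higher side (2.16% of all genes) and Mrps28 and Mrpl45 on the lower (2.57%). Counts this small moved when single arrays were left out. Genes higher at an unadjusted p under 0.05 numbered 3 in place of 5 without WT replicate 3, R6/2 replicate 1 or R6/2 replicate 3, set beside 3.28%, 3.24% and 3.38% of all genes. Lower ones numbered 1 in place of 2 without WT replicate 2, R6/2 replicate 1 or R6/2 replicate 3, set beside 2.92%, 2.94% and 3.51% of all genes. Groups of 4 against 3 arrays separate more easily: without WT replicate 2, groups did not overlap for 10 members (13.2%) and for 8.80% of all genes.

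Probes of the same gene often differed in sign. Several probes were measured for 26 genes, 56 probes in all. Their differences had the same sign for 13 genes and opposite signs for 13, and the median gap between a gene's highest and lowest probe was 0.40. Among the genes of same sign, the probes of Mrpl23 share 55 of 60 bases in a row and those of Mrpl40 share 52. These pairs are not independent readings. Mrpl30, also of same sign, has 1 probe placed on chromosome 1 and the other on chromosome 11. The gap was under 0.5 for 16 genes and over 1 for Mrps18b alone. Its 3 probes are shown because 2 of them read nearly the same bases: these are the first 30 of 60 bases of each, 5′ to 3′, with capitals where at least 12 bases in a row recur in another probe of the gene. In order they lie at mm9 chr17:36047331-36047390, chr17:36047326-36047385 and chr17:36051313-36051461, all on the minus strand.
Mrps18b probe 1: ggtgtGTCCCTGATTTAAACCTCCTGGCTC
Mrps18b probe 2: GTCCCTGATTTAAACCTCCTGGCTCAGCTT
Mrps18b probe 3: acagcggacccgaaagacatgtattcgtaa

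The overlapping probes of Mrps18b, a small-subunit gene, gave -0.32 (SE 0.23) and -0.25 (SE 0.25), at mean WT levels of 3.20 and 2.66. Probe 3 gave 0.95 (SE 0.53) at a mean WT level of -3.16. That probe was spread in WT, at -4.28, -3.95, -2.63 and -1.77, and tighter in R6/2, at -1.86, -2.34, -2.09 and -2.54. The mean of all 3 probes turned the sign of Mrps18b, to 0.13.

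Mrps23 also had probes far apart, and was singled out after its values were seen. The probe that stands for the gene gave 0.18 (SE 0.26) from 2.68 ± 0.40 in WT and 2.86 ± 0.26 in R6/2 (SD, n = 4 each). The other read -3.57, -2.98, -3.20 and -2.85 in WT and -2.63, -2.30, -2.15 and -0.97 in R6/2, without overlap, a difference of 1.14 (SE 0.37). Mrpl47 had 4 probes, at -0.49, 0.06, 0.32 and 0.45. On the first of these, all 4 R6/2 arrays lay below all 4 WT arrays. Whether such probes read different transcripts of a gene was not tested.

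**Figure D3:**
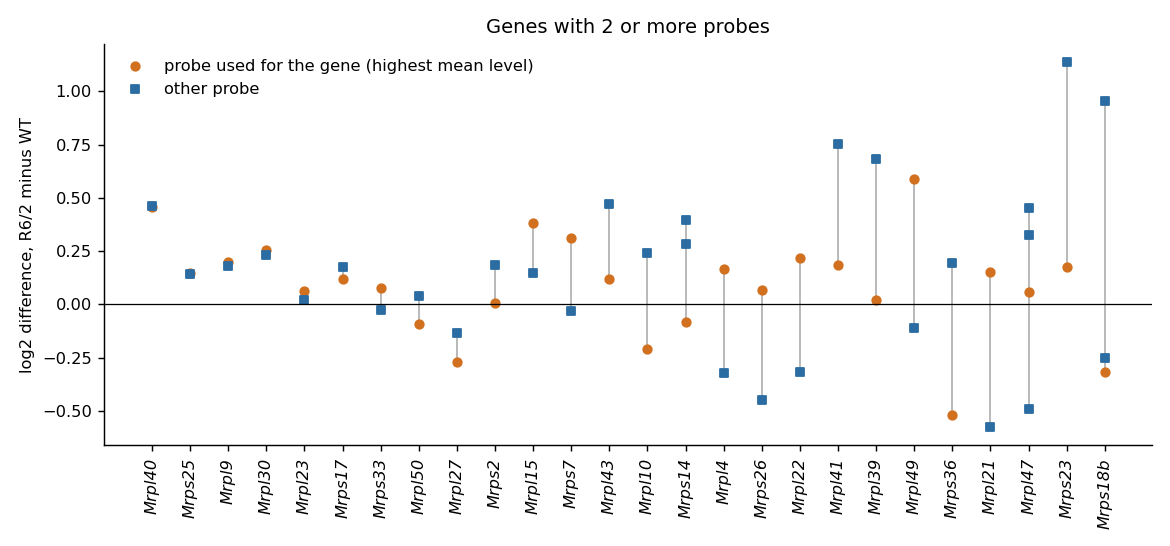
Log2 difference (R6/2 minus WT) of every measured probe of the 26 genes with more than 1 probe, ordered by the gap between a gene's probes; circles mark the probe that stands for the gene, squares the others. The gap is largest for Mrps18b, from -0.32 to 0.95.

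Promoters of the family were compared with those of all genes, since nuclear genes for mitochondrial proteins are known to share sites for NRF1, for ETS-type factors such as GABP and for YY1. RefSeq windows of 300 bases on GRCm38.p6, from 250 bases before to 50 after the start, were matched for 67 of the 76 genes (73 windows), and 32851 windows of all genes served for comparison. Motifs were searched on both strands, and shares are of genes with a match in any window, over these 67 and over all 27025 genes. The ETS motif CCGGAAG was found for 35.8% of members and 9.93% of all genes. The YY1 motif AAGATGGC was found for 17.9% and 3.19%. The NRF1 core GCATGC was found for 13.4% and 8.93%, and the full NRF1 motif, that core with GC added on either side, for 4.48% and 1.07%, so every full match is also a core match. CCCGCCC, bound by SP factors, was found for 41.8% and 27.9%. The cyclic AMP element TGACGTCA was found for 2.99% and 2.03%, and the E-box CACGTG for 7.46% and 8.09%. Member windows were richer in G and C (median 58.3% against 52.7%) and in CpG (median 21 against 7 per window), and the shares were not matched for this.

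The 120 bases directly before the start are given for the named genes in which an ETS or full NRF1 match fell there. Such matches stood before genes with differences of either sign. Among the named genes, Mrps28, Mrpl13 and Mrpl54 had no matched window and were not searched. The stretches are read 5′ to 3′ on the gene's strand, with the ETS or full NRF1 match in capitals. NRF1 cores outside a full match, as in Mrpl32, stay in lower case. In order they belong to Mrps18a (GRCm38 chr17:46110884-46111003, plus strand, ETS, difference 0.55), Mrpl27 (chr11:94653671-94653790, plus strand, ETS, difference -0.27), Mrpl52 (chr14:54426789-54426908, plus strand, ETS on the other strand, difference -0.32) and Mrpl32 (chr13:14613038-14613157, minus strand, NRF1, difference -0.32).
Mrps18a: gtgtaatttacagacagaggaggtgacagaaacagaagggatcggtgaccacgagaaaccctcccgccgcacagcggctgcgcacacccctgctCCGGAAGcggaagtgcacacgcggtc
Mrpl27: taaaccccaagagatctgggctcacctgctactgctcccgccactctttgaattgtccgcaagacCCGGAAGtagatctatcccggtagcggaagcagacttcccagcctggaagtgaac
Mrpl52: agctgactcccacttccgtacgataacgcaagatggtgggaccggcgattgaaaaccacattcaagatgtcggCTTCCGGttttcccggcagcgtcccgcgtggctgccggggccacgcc
Mrpl32: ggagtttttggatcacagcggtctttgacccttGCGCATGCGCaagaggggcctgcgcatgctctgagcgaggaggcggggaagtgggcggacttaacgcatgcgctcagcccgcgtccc

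A letter match describes the sequence and does not say that a factor binds there. One pair of members is arranged head to head: Mrps11 (plus strand) and Mrpl46 (minus strand) start 42 bases apart on chromosome 7, at 78783131 and 78783089 on GRCm38.p6. Their differences were 0.21 (SE 0.31) and 1.11, both positive, and the first lay within its error.

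The rest of the mitochondrial translation machinery, a list of 69 genes, had a median difference of 0.07, with 38 positive and 31 negative. None passed the adjusted threshold (lowest adjusted p 0.596). At an unadjusted p under 0.05, 4 were higher and 1 was lower, together 7.25% of the list against 7.15% of all genes. The sign of the median turned with the setting. It was -0.07 over the 51 genes well above background on all 8 arrays, -0.03 under array median scaling and -0.002 under normexp background correction. Ribosomal proteins with other names (6 genes) had a median of 0.07, factors for rRNA modification and assembly (22) 0.07, translation factors (12) 0.21, aminoacyl-tRNA synthetases (17) 0.07, membrane insertion and mRNA handling (7) -0.03 and transcription of mitochondrial DNA (5) -0.15.

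Within that list the smallest p belonged to Mrm2, a methyltransferase of the large-subunit rRNA. Its levels were -2.86, -3.08, -3.37 and -3.33 in WT and -2.67, -2.57, -2.30 and -1.73 in R6/2, without overlap (difference 0.84, SE 0.25, limma adjusted p = 0.596). Rars2, the mitochondrial arginyl-tRNA synthetase, also had groups that did not overlap, at -2.42, -1.84, -1.92 and -1.47 in WT and -1.37, -1.27, -0.99 and -0.32 in R6/2 (difference 0.92, SE 0.30, limma adjusted p = 0.610). Tfb1m, which dimethylates the small-subunit rRNA, differed by 0.93 (SE 0.31, limma adjusted p = 0.615), and the release factor Mtrf1l by 1.13 (SE 0.41, limma adjusted p = 0.652). Rbfa, a maturation factor of the small subunit, was at -0.76 (SE 0.33, limma adjusted p = 0.698). Trmt2b, a methyltransferase for mitochondrial RNA, was at 1.42 (SE 0.67, limma adjusted p = 0.721) with a WT level of -4.85 ± 1.27 (SD, n = 4).

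Transcripts that the mitochondrial ribosome translates were measured too. The 13 protein-coding transcripts of mitochondrial DNA had a median difference of -0.06, with 4 positive and 9 negative (1 and 12 under array median scaling). None was at an unadjusted p under 0.05, against 7.15% of all genes. COX1, the catalytic subunit of cytochrome c oxidase, had the largest at 0.29 (SE 0.18, limma adjusted p = 0.773), and the other 12 lay between -0.11 and 0.10. For 6 of the 13 the file places the probe on chromosome 1 of mm9, where a nuclear copy of mitochondrial DNA lies, so the source of that signal is uncertain.

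Of the nuclear-encoded subunits of the respiratory chain and ATP synthase, 39 of 85 tested were positive, with a median of -0.01. This split turned with the setting, to 25 positive under array median scaling, 58 under quantile normalization and 56 without WT replicate 2. Cytosolic ribosomal proteins numbered 76 as well and had 54 positive differences, with a median of 0.10. None was at an unadjusted p under 0.05, against 7.15% of all genes. There were 38 positive under array median scaling and 39 without WT replicate 1, with medians of 0.0016 and 0.0023. Among these 5 lists no gene passed the adjusted threshold.

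**Figure D4:**
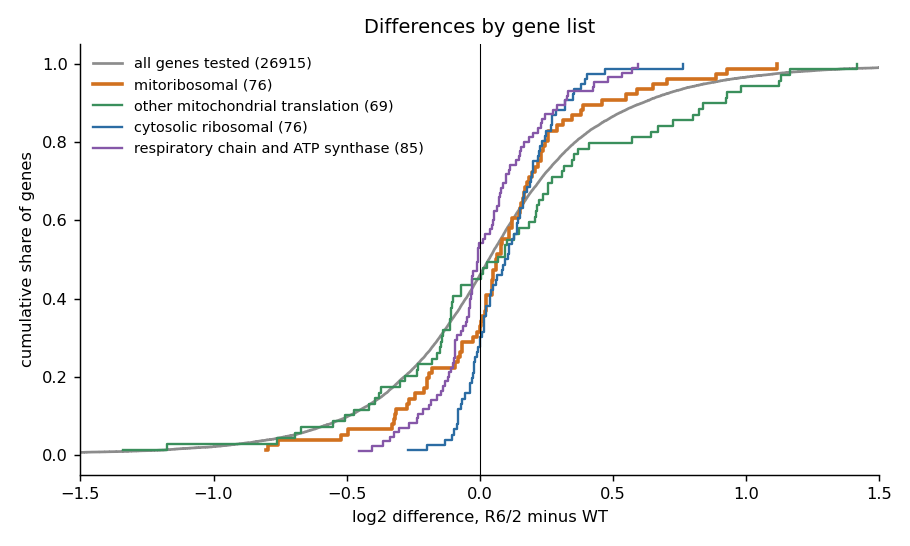
Cumulative share of genes against log2 difference (R6/2 minus WT) for all genes tested (grey), the 76 mitochondrial ribosomal genes (orange) and 3 comparison lists; numbers in brackets are genes. The mitochondrial ribosomal curve is steeper than that of all genes, with medians of 0.06 and 0.03.

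Markers of the sorted cells had lower values in R6/2, although none passed the adjusted threshold (lowest limma adjusted p 0.512). All 13 MSN markers had negative differences, while 54% of all genes had positive ones. At an unadjusted p under 0.05, 8 of the 13 were lower, against 3.45% of all genes. The summed level of the 13 markers was 1029 to 1257 times the array's 75th percentile in WT and 701 to 800 in R6/2. Among these was Scn4b, the gene that names the sorting reporter (-1.15, SE 0.28, limma adjusted p = 0.555). Oligodendrocyte markers were negative in 6 of 6, none at an unadjusted p under 0.05 (7.15% of all genes were). Their sums were 6.24 to 41.2 in WT and 6.10 to 13.5 in R6/2. Astrocyte sums (5 of 7 positive) were 1.96 to 3.69 in WT and 1.32 to 4.02 in R6/2. Microglial markers (3 of 5 positive) had sums of 178.3 to 197.9 in WT and 147.2 to 172.5 in R6/2, without overlap. Those sums come mostly from Itgam, which was lower on all R6/2 arrays (-0.21, limma adjusted p = 0.818), and P2ry12 was not among the genes tested. Sums over interneuron markers were 2.28 to 5.31 and 2.33 to 11.9, and over endothelial and mural markers 3.36 to 5.23 and 3.00 to 4.07. The part of these marker values in the differences above was not tested.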

How the data were processed

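Each of 8 RNA samples was hybridised with Cy3 to a mouse Agilent array. The deposited scanner files hold spot intensity values from Agilent Feature Extraction, background-subtracted and detrended by the software and not scaled between arrays, per the file headers. The deposited log2 values of the whole-series table matched the log2 signal over the array's 75th percentile (median differences up to 0.00724) and served as an alternative. Probe coordinates are on mm9, and exon or UTR positions were not used here.

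Processed intensity was taken to log2, outlier spots were left out, spots of a probe averaged, and the 75th percentile over non-control probes (314 to 383 intensity units) subtracted. The number of arrays limits the precision. Probe names were updated through RefSeq's GRCm38.p6 table (accession 26762 probes, symbol 3819, older symbol 639, kept 24461). Of 55681 probes, 41378 exceeded background clearly on 4 or more arrays. The one with the highest mean stood for its gene, leaving 26915 genes. The test was limma 3.58.1 under R 4.3.3 (lmFit and eBayes). Two-sided p-values were adjusted by Benjamini-Hochberg over all genes, with a threshold of 0.05. SE values of single probes of a gene come from such a fit on all probes. The methods' t-test is the unpaired test named in the deposited table. The script was tested on simulated data. One garbled line of R6/2 replicate 3 was left out (62974 of 62976 spots read). Slide 1 held 7 arrays and slide 2 only R6/2 replicate 4.

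Named genes were those at an unadjusted p under 0.05 or without overlap, the 8 with the smallest p in each direction, those with probes over 1 apart, the smallest p of each class, and 6 of the other translation genes. The members and all lists were chosen with earlier results of these data known.

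Replicate numbers did not pair the samples: deviations of same-numbered arrays from their group means correlated between -0.05 and 0.03.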

Additional observations from a re-analysis of the deposited data

Results flagged for a closer look

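Within groups of 4 arrays, 10 of 152 gene and group combinations held 1 array far from the other 3 (its gap to the nearest, over the whole range, above Dixon's 95% critical value); chance gives about 1 in 20. R6/2 replicate 2 held 3 of them, WT replicate 2, WT replicate 3 and R6/2 replicate 1 held 2 each, and WT replicate 1 held 1. Flagged values are those of the probe that stands for each gene.

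Mrpl46, of the central protuberance, read -2.39 in WT replicate 2 against -0.56 to -0.37 in the other WT arrays, and its difference was 0.63 without that array. Mrpl10, of the stalk base, was the gene set most widely apart: 1.91 in WT replicate 1 against -0.75 to -0.33, and -0.98 in R6/2 replicate 2 against 0.10 to 0.26. Without the first array its difference was 0.40 and without the second 0.08, in place of -0.21. The other Mrpl10 probe read -1.80 in WT replicate 1, its lowest WT value, and 0.81 in R6/2 replicate 2, its highest R6/2 value. That probe gave a difference of 0.24.

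Mrps22, a small-subunit protein, read 1.96 in WT replicate 2 against 2.43 to 2.52, and 1.91 in R6/2 replicate 1 against 2.34 to 2.43. Mrps26 read 1.74 in WT replicate 3 against 2.33 to 2.35. Mrps9 read -1.60 in R6/2 replicate 1 against -0.52 to -0.41, and its difference went from -0.20 to 0.09 without that array.

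Among large-subunit genes, Mrpl24 read 2.88 in R6/2 replicate 2 against 3.19 to 3.22, Mrpl14 read 0.36 in the same array against 0.88 to 0.95, and Mrpl21 read 3.52 in WT replicate 3 against 3.73 to 3.75. Their differences without these arrays were 0.37, -0.19 and 0.10.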

How the results depend on the processing

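No mitochondrial ribosomal gene passed the adjusted threshold in any of the 19 alternative settings (the fit within the first slide is the one without R6/2 replicate 4), the lowest adjusted p of a named member being 0.396, with probes well above background on all 8 arrays. Array median scaling gave medians of -0.034 for the family, 0.011 for Mrps and -0.049 for Mrpl genes. At an unadjusted p under 0.05 it gave 2 genes higher and 3 lower, against 2.46% and 5.08% of all genes. Leaving out 1 array at a time gave 3 to 5 higher and 1 to 3 lower, against 3.09% to 4.58% and 2.82% to 3.88% of all genes. Without overlap there were 7 to 10 genes (9.21% to 13.2%, against 7.19% to 8.80% of all genes), and medians ran from 0.03 to 0.12. Within the first slide the median was 0.03, with 4 higher and 2 lower (3.09% and 2.82% of all genes). Of 322 values of the named members over these settings, 321 kept their sign; Mrps18b turned to 0.13 under the mean of a gene's probes. Causes were not tested. Mrpl28, Mrm2 and Mtrf1l were well above background on 7 arrays and Trmt2b on 6, which limits these genes.

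With the replicate number as a block, 4 genes were higher and 1 was lower at an unadjusted p under 0.05 (3.76% and 3.05% of all genes). None passed adjustment (lowest limma adjusted p 0.712), and the numbers do not pair the samples.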
